A study of Homo sapiens with 24 samples.

Results

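Wild type SIRT6 was compared with an empty vector in cells stimulated with TNFα, on 3 arrays of each, 6 of the 24 arrays of the series, over all 54675 probe sets. The arrays were chosen by their labels alone. HEK293 cells, a line from human embryonic kidney, were transfected for 24 h with a pCDNA3 plasmid that encodes Flag-tagged wild type SIRT6, or with pCDNA3 alone, and both were then given 10 ng/ml TNFα, 4 h by the methods and 1 h by the design text of the series. The resting arrays used below, also 3 of each, came from the same 2 transfections with the carrier of TNFα in its place, and further arrays from cells with the H133W mutant, which lacks deacetylase activity, and from untransfected cells. The 3 arrays of a group are labelled as biological replicates. A transient transfection leaves part of the cells without plasmid and the RNA came from the whole well, so that a large change in few cells and a small change in many cannot be told apart, nor can fewer cells of a kind and less RNA per cell.

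SIRT6 is a nuclear, NAD-dependent enzyme of the sirtuin family that removes acetyl groups from lysines of histone H3. TNFα binds its receptor and frees the transcription factor NFκB from its inhibitors, after which NFκB enters the nucleus and switches on chemokines, adhesion molecules and its own inhibitors. SIRT6 has been described as a corepressor at NFκB target promoters, and the comparison asks which transcripts differ when more SIRT6 is present during the response.

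Values are log2 RMA values, in which 1 unit is a doubling, and a change is the SIRT6 mean minus the empty vector mean. A probe set was called upregulated or downregulated where its fold change exceeded 1.5 and its adjusted p was under 0.05, and was counted if the platform's table names a gene for it. The 95% interval of a change reached 0.233 to each side at the median over the 42898 named probe sets. The 6 arrays were close to each other, with medians between 5.33 and 5.37. The 3 arrays of lowest quality weight in the series, H133W + TNFα replicate 3, untransfected replicate 2 and empty vector replicate 2, were not among them, though they enter the shared estimate of the spread. Of 10 markers of HEK293 cells 8 lay over the median of all probe sets, against 1 of 11 blood cell markers (LCP1) and 3 of 12 fibroblast markers, and none of these markers passed between the 2 groups. The difference between the 3′ and 5′ control probe sets of actin, a sign of RNA quality, was 1.54 to 1.65 on SIRT6 arrays and 1.497 to 1.541 on empty vector arrays, and its part in the changes was not tested.

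Wild type SIRT6 upregulated 30 named probe sets in TNFα-stimulated cells, 0.0699% of those tested, and downregulated 2, 0.00466%. The 30 read 25 genes, with a further probe set, 223774_at, that is listed for several genes. Rises were modest, with a median of 0.76 and a highest value of 1.47. The arrays of the 2 groups did not overlap in any of the 32 probe sets, as was so for 20.3% of all named probe sets. The list held genes of stress responses (MAFF, CHAC1, DDIT3), a phosphatase of stress kinases (DUSP8) and noncoding RNAs. It also held histone and nuclear RNA factors and 2 receptors of innate immunity (TLR7, CD14). The chemokines and adhesion molecules that TNFα raised most were not on it. Leaving out 1 of the 6 arrays lowered the count of higher probe sets to between 14 and 22. The lowest count was without SIRT6 + TNFα replicate 1 and the highest without empty vector + TNFα replicate 3. All 32 kept their direction each time, which was fixed in advance because the arrays of the 2 groups did not overlap. Without the 3 arrays of low weight the fit gave 52 higher and 9 lower.

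**Figure D1:**
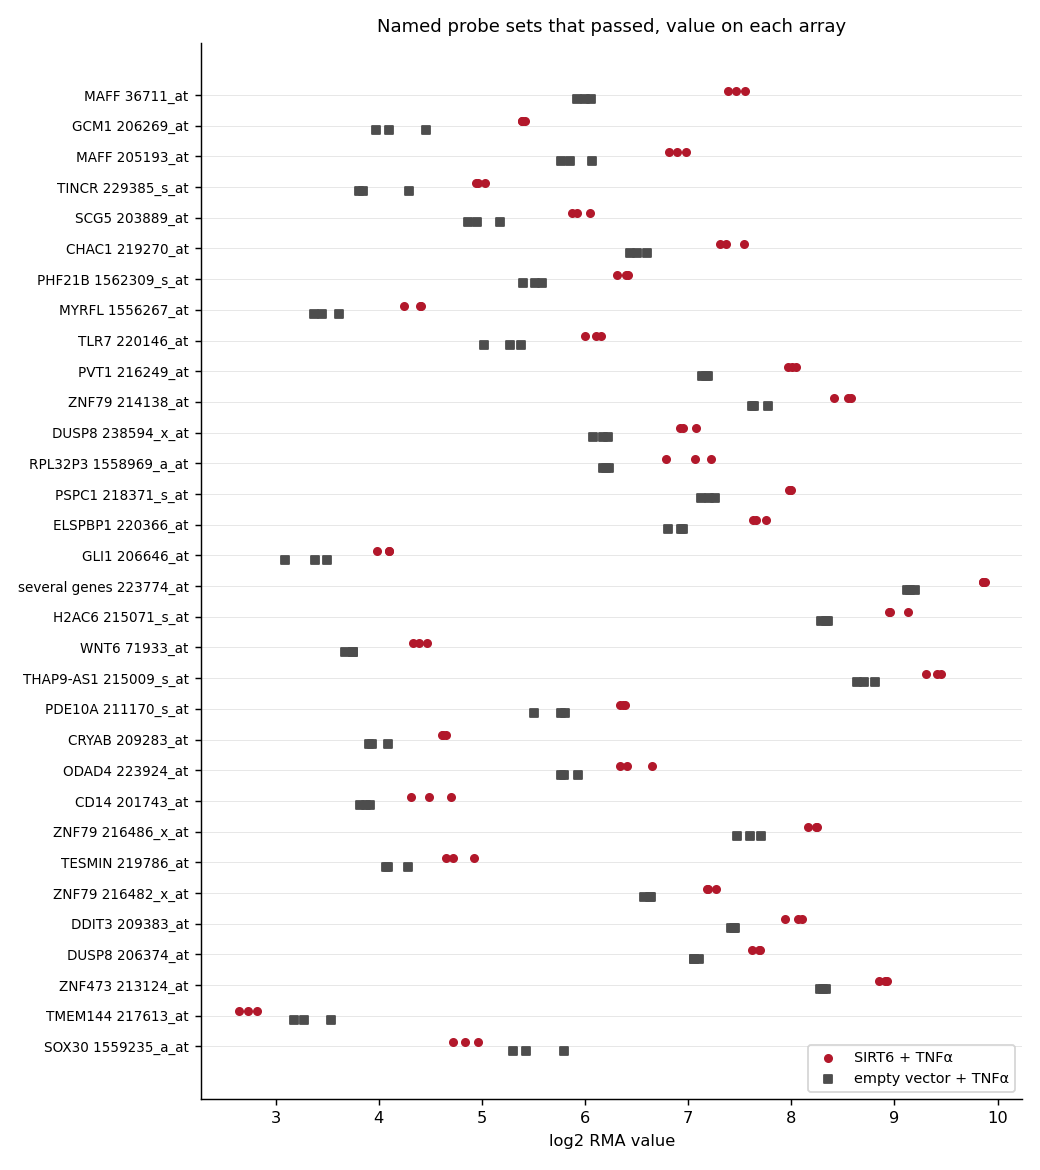
Log2 RMA value (horizontal axis) of the 32 named probe sets that passed, on the 3 SIRT6 + TNFα arrays (red circles) and the 3 empty vector + TNFα arrays (grey squares), ordered by the change. The 2 groups do not overlap in any row, and MAFF at the top is apart by 1.47.

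The targeted gene comes first, as a check of the labels. One SIRT6 probe set, 233179_x_at, read 9.35, 9.62 and 9.33 on the SIRT6 arrays and 8.80, 8.54 and 9.19 on the empty vector arrays. All SIRT6 arrays were above all empty vector arrays, but the change of 0.59 (SE 0.293) did not pass (adjusted p = 0.781). This probe set is of a kind that can hybridise to related transcripts. The other, 219613_s_at, read 8.39, 8.44 and 8.22 against 8.21, 8.23 and 8.16, a change of 0.15 (SE 0.0997, adjusted p = 0.915) with overlapping arrays. Which stretch of the transcript either probe set reads is not given in the sources used here, so that it is not known whether either also reads the transcript of the plasmid. Among the other 6 sirtuins, the nearest was SIRT7 with a change of 0.16 (adjusted p = 0.967).

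MAFF had the largest change. It encodes a small MAF protein, a partner of NRF2 and of other leucine zipper factors that has no activation domain of its own. Its probe set 36711_at read 7.46, 7.38 and 7.55 in SIRT6 cells, against 5.92, 6.00 and 6.05 in empty vector cells. The rise was 2.78-fold (log2 1.47, SE 0.149, adjusted p = 0.000134). The second MAFF probe set, 205193_at, read 6.82, 6.98 and 6.90 against 5.76, 5.86 and 6.07, a rise of 1.001 (SE 0.145, adjusted p = 0.00347). MAFF passed without any single array of the 6. It was the only member that passed of 25 small MAF genes and NRF2 targets, whose median change was 0.048 beside 0.0029 over all 19775 genes. The classical NRF2 target HMOX1, haem oxygenase, changed by 0.18 (adjusted p = 0.893) and MAFG by 0.30 (adjusted p = 0.75).

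The clearest shared movement lay among targets of ATF4 and CHOP, the transcription factors of the integrated stress response that follow amino acid shortage or misfolded protein. Of 42 measured genes 2 were upregulated, CHAC1 and DDIT3, and none was downregulated, beside 0.126% and 0.0101% of all genes. A further 3, CTH, ATF3 and PPP1R15A, had an adjusted p under 0.05 with a fold change under 1.5. The median change of the list was 0.15, 40 of 42 genes had a change above 0 (51.2% of all genes did), and in 23 of 42 all SIRT6 arrays lay above all empty vector arrays (2197 of all 19775 genes). This list, like the others below, was drawn up with earlier results of these data known, and its counts are a description.

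CHAC1 encodes an enzyme that degrades glutathione. It read 7.31, 7.55 and 7.37 in SIRT6 cells and 6.51, 6.60 and 6.44 in empty vector cells. The rise was 1.86-fold (log2 0.89, SE 0.128, adjusted p = 0.00347), and it passed without any single array. DDIT3, which encodes CHOP itself, read 7.94, 8.10 and 8.07 against 7.41, 7.44 and 7.46, again with no overlap. Its rise of 0.60 (SE 0.117, adjusted p = 0.0472) lay just inside both thresholds and was lost when any of the 6 arrays was left out.

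The promoters of CHAC1 and ATF3 are shown because both hold a match to TGATGNAA, a core of the composite element that ATF4 binds with C/EBP partners, searched on both strands. Each run spans a RefSeq start site on GRCh38.p14, with the match in capitals. That of CHAC1 is chr15:40953221-40953520 on the plus strand, and its match is on the opposite strand and begins 209 bases before the start site. That of ATF3 is 1 of its promoter windows, chr1:212565157-212565456 on the plus strand, with the match 191 bases before the start site.
CHAC1: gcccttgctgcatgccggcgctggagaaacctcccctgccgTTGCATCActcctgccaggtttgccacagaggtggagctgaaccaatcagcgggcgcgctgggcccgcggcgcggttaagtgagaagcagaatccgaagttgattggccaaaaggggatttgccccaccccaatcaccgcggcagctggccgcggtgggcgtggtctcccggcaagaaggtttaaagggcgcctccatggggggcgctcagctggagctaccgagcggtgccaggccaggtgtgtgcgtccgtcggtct
ATF3: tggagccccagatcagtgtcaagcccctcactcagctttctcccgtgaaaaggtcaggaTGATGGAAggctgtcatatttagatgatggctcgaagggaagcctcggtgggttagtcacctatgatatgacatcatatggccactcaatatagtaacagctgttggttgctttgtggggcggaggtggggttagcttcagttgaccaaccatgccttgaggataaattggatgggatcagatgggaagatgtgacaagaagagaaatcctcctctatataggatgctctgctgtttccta
This match was present in 3.62% of all 35116 promoter windows. Of the 25 upregulated genes 15 have a window in the table and CHAC1 alone had the match. Of 23 further genes with a window that rose at an adjusted p under 0.05 only, AJUBA, ATF3 and ZNF143 had it. The E-box CACGTG, in 7.26% of all windows, was found among the upregulated genes in MAFF alone. The heat shock element, 3 GAA units in alternating orientation spaced by 2 bases (0.49% of all windows), and the GLI motif GACCACCCA (0.236%) were found in none of the 15.

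ATF3, a stress-induced repressor, read 9.83, 9.84 and 9.94 in SIRT6 cells and 9.26, 9.34 and 9.44 in empty vector cells (change 0.53, SE 0.0789, adjusted p = 0.00516). CTH, which makes cysteine from cystathionine, changed by 0.58 (SE 0.082, adjusted p = 0.00339), the nearest of all to the fold threshold from outside. PPP1R15A, the GADD34 subunit that ends the stress response by dephosphorylating eIF2α, changed by 0.43 (SE 0.0761, adjusted p = 0.0238). All 3 had a lower adjusted p than DDIT3 and a smaller change. FGF21 changed by 0.59 (adjusted p = 0.472) and INHBE by 0.43 (adjusted p = 0.377), with no overlap but a wider spread. ATF4 itself was near the top of the scale, at 12.84, 12.85 and 12.85 against 12.82, 12.80 and 12.81, a change of 0.04 (adjusted p = 0.999). ASNS changed by 0.17 (adjusted p = 0.368) and TRIB3, read by 218145_at, by 0.05 (adjusted p = 0.999). Of 21 chaperones and quality control genes of the endoplasmic reticulum none passed, with a median of 0.0074 and HSPA5, the main such chaperone, at 0.07 (adjusted p = 0.999).

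**Figure D2:**
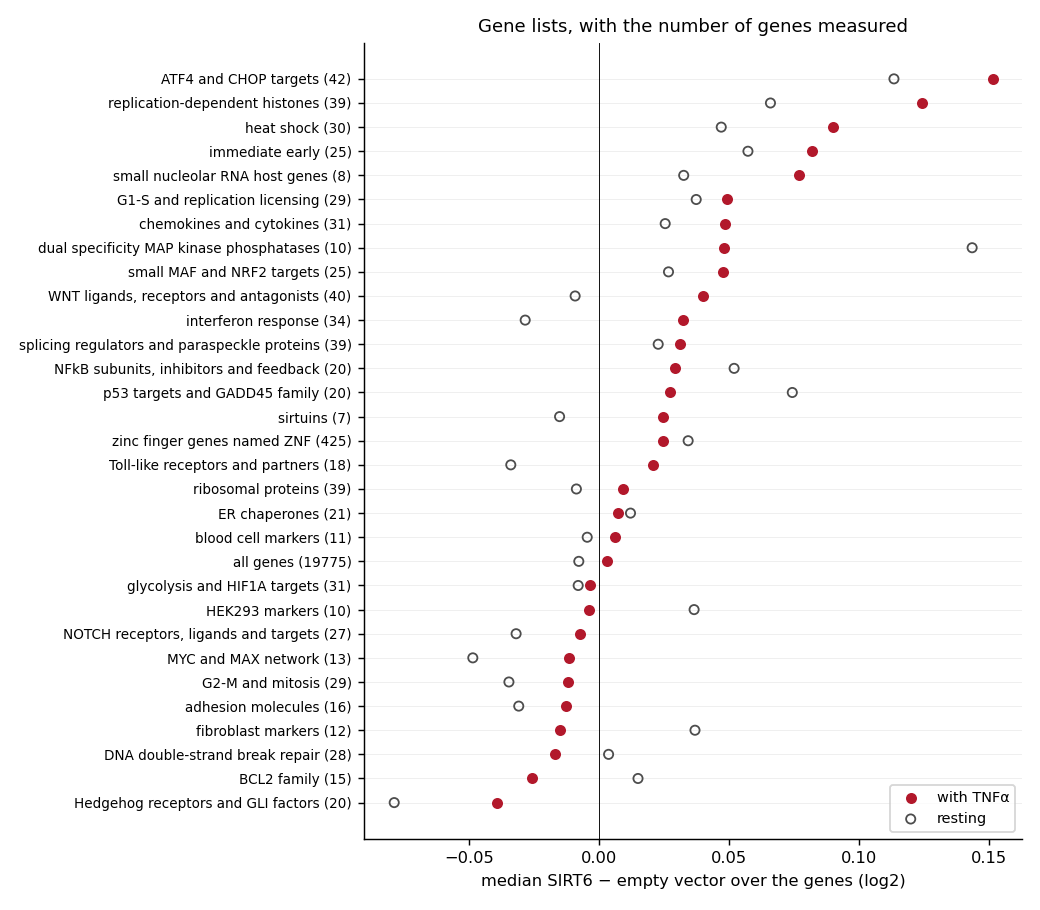
Median change of SIRT6 over empty vector (log2, horizontal axis) for each gene list and for all genes, with TNFα (filled) and at rest on other arrays (open), with the number of genes measured in brackets. ATF4 and CHOP targets stand highest with TNFα, at 0.15, followed by replication-dependent histones at 0.12, while all genes are at 0.0029.

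DUSP8 was upregulated by both of its probe sets. It encodes a dual specificity phosphatase that switches off the stress kinases JNK and p38. Probe set 238594_x_at read 6.92, 6.95 and 7.08 in SIRT6 cells, against 6.17, 6.08 and 6.22 in empty vector cells, a rise of 0.82 (SE 0.0873, adjusted p = 0.000193). Probe set 206374_at read 7.70, 7.62 and 7.68 against 7.06, 7.06 and 7.11, a rise of 0.60 (SE 0.0843, adjusted p = 0.00339). The first is of a kind that can hybridise to related transcripts, and the second is not. DUSP8 was the only member that passed of 10 such phosphatases, whose median change was 0.048. The next was DUSP6, at 0.37 (adjusted p = 0.112).

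Noncoding RNAs were 5 of the upregulated features. PVT1, the long noncoding RNA beside MYC, read 7.97, 8.01 and 8.05 in SIRT6 cells and 7.13, 7.19 and 7.17 in empty vector cells. Its rise of 0.85 (SE 0.113, adjusted p = 0.002) held without any single array. MYC itself read 9.04, 9.37 and 9.25 against 9.45, 9.57 and 9.56, a change of −0.31 (SE 0.127) that did not pass (adjusted p = 0.641), so that the rise was not seen in its neighbour. Of 13 genes of the MYC and MAX network PVT1 was the only one that passed, and the median was −0.012.

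RPL32P3, a transcribed ribosomal protein pseudogene, read 7.07, 6.79 and 7.22 against 6.20, 6.18 and 6.23 by probe set 1558969_a_at (rise 0.82, SE 0.103, adjusted p = 0.00141). Its 2 other probe sets gave −0.01 and −0.10, so that the probe sets disagree. Probe set 223774_at is listed for several small nucleolar RNAs and their host. It read 9.88, 9.86 and 9.86 against 9.13, 9.15 and 9.20 (rise 0.71, SE 0.091, adjusted p = 0.00153). The other probe sets listed for these RNAs, 223773_s_at and 228990_at, did not reach an adjusted p under 0.05. SNHG17 and ZFAS1, which also host small nucleolar RNAs in their introns, were higher by 0.40 and 0.29 (adjusted p = 0.00249 and 0.041), under the fold threshold. Of 8 host genes measured, RPL32P3 among them, only 4 had a change above 0, beside 51.2% of all genes. Their median change was 0.077, or 0.026 by the probe set with the widest spread. The ribosomal protein genes, 39 in number, had a median of 0.0092 with none that passed.

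TINCR, an RNA described in the differentiation of epidermis, read 4.94, 4.97 and 5.03 in SIRT6 cells and 3.84, 3.81 and 4.29 in empty vector cells by probe set 229385_s_at (rise 0.999, SE 0.159, adjusted p = 0.00969). Its other probe sets gave 0.17 and 0.05, and the call held in only 2 of the 6 fits with 1 array left out. THAP9-AS1, an RNA antisense to THAP9, was higher by 0.67 (SE 0.101, adjusted p = 0.00516) and passed in 4 of the 6 such fits. Its level was much higher, at 9.39 ± 0.0775 in SIRT6 cells and 8.72 ± 0.092 in empty vector cells (SD, n = 3 each).

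Several upregulated genes encode histones and nuclear proteins. H2AC6, a replication-dependent histone H2A, read 9.13, 8.96 and 8.95 in SIRT6 cells, against 8.36, 8.28 and 8.34 in empty vector cells. Its rise of 0.68 (SE 0.0888, adjusted p = 0.00153) held without any single array. It was the only histone that passed of 39, yet 31 of the 39 had a change above 0 and their median was 0.12. H4C8, a histone H4, changed by as much, 0.67, but its wider spread left it outside (SE 0.162, adjusted p = 0.164). Probe sets of this family can read several near-identical histone genes, so that which gene rose is uncertain. ZNF473, a zinc finger protein of the U7 complex that cuts histone pre-mRNA, read 8.93, 8.91 and 8.85 against 8.27, 8.34 and 8.31. Its rise of 0.59 (SE 0.105, adjusted p = 0.0248) was the smallest that passed and was lost without any 1 of the 6 arrays, and its other probe set gave −0.09.

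PHF21B, a PHD finger protein, read 6.42, 6.31 and 6.40 in SIRT6 cells and 5.59, 5.40 and 5.51 in empty vector cells. Its rise of 0.87 (SE 0.0817) had the lowest adjusted p of all, 7.53e-05, and held without any single array, though its second, dimmer probe set gave 0.24 (adjusted p = 0.786). PSPC1, a protein of paraspeckles, read 8.0, 7.99 and 7.98 against 7.26, 7.13 and 7.21 by probe set 218371_s_at (rise 0.79, SE 0.103, adjusted p = 0.00153). Its 4 other probe sets ranged from −0.02 to 0.39 and none passed, so that the probe sets disagree. Of 39 splicing regulators and paraspeckle proteins PSPC1 alone passed, and 29 had a change above 0.

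ZNF79, a zinc finger protein, was upregulated by all of its 3 probe sets. Probe set 214138_at read 8.41, 8.55 and 8.58 in SIRT6 cells and 7.62, 7.64 and 7.78 in empty vector cells (rise 0.83, SE 0.121, adjusted p = 0.00347). The others, 216486_x_at and 216482_x_at, rose by 0.62 and 0.60, and both are of the kind that can hybridise to related transcripts. Of 425 genes named ZNF only ZNF79 and ZNF473 passed, with a median of 0.024, and ZNF34, ZNF143 and ZNF256 had an adjusted p under 0.05 with smaller rises of 0.50, 0.45 and 0.37. KDM6B, a demethylase of histone H3 that is better known as JMJD3, rose by 0.57, 0.56 and 0.42 on 3 probe sets at an adjusted p under 0.05, all below the fold threshold.

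GCM1, a transcription factor of placental trophoblast, read 5.41, 5.39 and 5.39 in SIRT6 cells, against 4.10, 3.97 and 4.46 in empty vector cells. Its rise of 1.22 (SE 0.198, adjusted p = 0.0117) was the second largest among genes. GLI1, the effector and target of Hedgehog signalling, read 4.09, 4.10 and 3.98 against 3.39, 3.50 and 3.09 (rise 0.73, SE 0.14, adjusted p = 0.0389). None of the other 19 genes of the Hedgehog list passed, and the list had a median of −0.039. WNT6, a secreted WNT ligand, read 4.46, 4.39 and 4.33 against 3.75, 3.75 and 3.67 by probe set 71933_at (rise 0.67, SE 0.121, adjusted p = 0.0248), while its 3 others gave 0.18, 0.05 and −0.03. These 3 genes were dim, and 9 of the 32 probe sets had a mean under 5, all 3 among them. GLI1 and WNT6 lost the call without any 1 of the 6 arrays, and GCM1 without any but empty vector + TNFα replicate 3.

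CRYAB encodes αB-crystallin, a small heat shock protein. It read 4.61, 4.63 and 4.66 in SIRT6 cells, against 3.90, 3.93 and 4.09 in empty vector cells, a rise of 0.66 (SE 0.0828, adjusted p = 0.00141) that held without any single array. CRYAB was dim in both groups, averaging 4.63 and 3.97, though its mean over the 24 arrays was 5.18. It was the only one that passed of 30 heat shock genes, of which 24 had a change above 0 and whose median was 0.090. DNAJB1, an HSP40 co-chaperone, changed by 0.26 (adjusted p = 0.0523) on its brighter probe set, and HSPA6, an inducible HSP70, by 0.49 (adjusted p = 0.368).

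The remaining upregulated genes belong to no list. SCG5, a chaperone of a prohormone convertase, read 5.87, 6.05 and 5.92 in SIRT6 cells and 4.87, 4.95 and 5.17 in empty vector cells (rise 0.95, SE 0.156, adjusted p = 0.0129). MYRFL, a relative of myelin regulatory factor, read 4.40, 4.24 and 4.41 against 3.38, 3.61 and 3.45 (rise 0.87, SE 0.159, adjusted p = 0.031). ELSPBP1, an epididymal sperm-binding protein, was higher by 0.79, PDE10A, a cyclic nucleotide phosphodiesterase, by 0.67, ODAD4, of the outer dynein arm docking complex, by 0.63, and TESMIN, a testis protein, by 0.61. Of these 6 only ELSPBP1 held without any single array. PDE10A rose on 1 of 3 probe sets, the others giving 0.12 and −0.00, and TESMIN on 1 of 2, the other giving −0.02.

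TMEM144, 1 of the 2 downregulated genes, was dim, and both lost the call without any 1 of the 6 arrays. SOX30, a transcription factor of the testis, read 4.72, 4.84 and 4.96 in SIRT6 cells, against 5.80, 5.30 and 5.43 in empty vector cells (change −0.67, SE 0.131, adjusted p = 0.0445), with 0.19 on its other probe set. TMEM144, a membrane protein, read 2.64, 2.82 and 2.73 against 3.18, 3.54 and 3.28 (change −0.60, SE 0.11, adjusted p = 0.0324), and its 3 other probe sets gave 0.02, −0.01 and −0.06. Untransfected cells given TNFα averaged 2.70 on the probe set that passed, near the SIRT6 cells and below the empty vector cells. IFNAR1, a chain of the type I interferon receptor, was the only other gene with a lower value at an adjusted p under 0.05, by −0.35 (adjusted p = 0.0205).

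A total of 33 named probe sets were higher at an adjusted p under 0.05 but below the fold threshold, and 36 higher and 45 lower ones passed the fold threshold alone. Together 66 named probe sets, 0.154%, had an adjusted p under 0.05. Those nearest inside were ZNF473 on the fold and CD14 on the adjusted p (0.0499). Just outside lay CTH on the fold, and TMEM52B on both, with an adjusted p of 0.0529 and a change of 0.56.

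TNFα targets were then taken from cells that had no plasmid, on arrays that the comparison does not use. In untransfected cells TNFα raised 302 named probe sets (0.704%) and lowered 88 (0.205%) by the same thresholds. Of these 390, SIRT6 changed 2, TLR7 and DUSP8 (238594_x_at), both higher, which is 0.513% beside 0.0746% of all named probe sets. Leaving out an array left 1 or 2, while 3, all higher, passed without the 3 arrays of low weight, and 5 higher and 1 lower with array weights. Each of these fits drew its own TNFα list, of 485 probe sets without the 3 arrays and 523 with array weights. In the main fit PPP1R15A and CSRNP1, raised by TNFα by 0.94 and 0.64, were also higher with SIRT6. Their SIRT6 changes of 0.43 and 0.44 (adjusted p = 0.0238 and 0.0324) were below the fold threshold. None of the 390 was lower at an adjusted p under 0.05. MAFF (36711_at) lay just outside the TNFα list, with a TNFα change of 0.58 in untransfected cells (adjusted p = 0.0586). Among the 302 raised probe sets the median SIRT6 change was 0.0055, with quartiles of −0.13 and 0.11, and 51.3% had a change above 0, beside 50.8% of all named probe sets. Among the 88 lowered ones the median was −0.0073. All SIRT6 arrays lay above all empty vector arrays in 22.2% of the 302 and below in 16.6%. Over all named probe sets these shares were 10.5% and 9.81%. The transcripts that TNFα raised were thus spread on both sides of 0, with non-overlapping arrays more often than named probe sets at large.

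**Figure D3:**
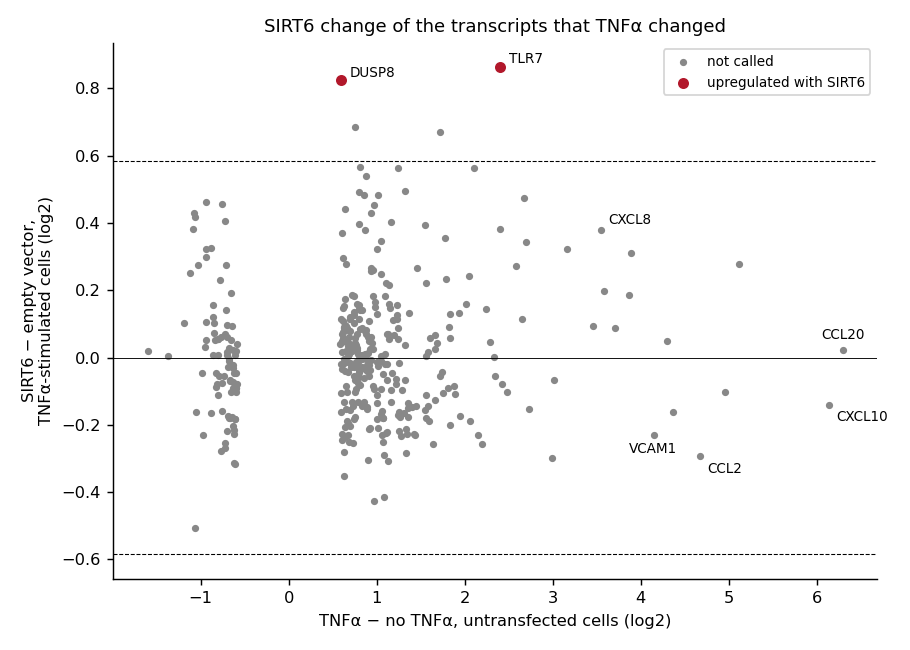
SIRT6 minus empty vector in TNFα-stimulated cells (log2, vertical axis) against the TNFα change in untransfected cells (log2, horizontal axis) for the 390 named probe sets that TNFα changed in untransfected cells. Dashed lines mark a fold change of 1.5, and TLR7 and DUSP8 (red) are the 2 that passed.

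CCL20, a chemokine of dendritic cells and lymphocytes and the transcript that TNFα raised most (log2 6.29), read 10.23, 10.50 and 10.49 in SIRT6 cells and 10.32, 10.40 and 10.43 in empty vector cells. Its change was 0.02, with a 95% interval from −0.40 to 0.44. CXCL10, an attractant of T cells, read 8.98, 8.88 and 9.04 against 9.17, 9.01 and 9.14 (change −0.14, interval −0.51 to 0.22). CCL2, which encodes the monocyte attractant MCP1, read 8.86, 9.32 and 9.20 against 9.35, 9.46 and 9.46. Its SIRT6 arrays lay below its empty vector arrays, but the change of −0.29 (SE 0.158, interval −0.62 to 0.04) did not pass (adjusted p = 0.826). The interval of CCL2 reached past the fold threshold, and those of the other 2 did not.

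CXCL8, the neutrophil attractant IL-8, leaned the other way, at 8.64, 8.69 and 8.66 in SIRT6 cells and 8.31, 8.26 and 8.28 in empty vector cells (change 0.38, SE 0.111, adjusted p = 0.344 for 202859_x_at). TNF changed by 0.05, CXCL1 by −0.10 and the adhesion molecule VCAM1 by −0.23, with adjusted p values of 0.999, 0.999 and 0.972. Of the 20 named probe sets that TNFα raised most in untransfected cells none passed, with TNFAIP3 and TNFRSF9 read by more than 1 of them. Their changes ran from −0.30 to 0.48 around a median of 0.068. ICAM1, the receptor for leukocyte integrins, was nearest among adhesion molecules, at 4.66, 4.30 and 4.51 against 3.72, 3.76 and 3.93 on probe set 202638_s_at (change 0.69, SE 0.143, adjusted p = 0.0689), and its brighter probe set changed by 0.52 (adjusted p = 0.377). None of the 16 adhesion molecules and 31 chemokines and cytokines passed.

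The NFκB system itself gave no call in 20 genes, with a median of 0.029. All SIRT6 arrays lay above all empty vector arrays in 7 of the 20 and below in 2, beside 11.1% and 10.4% of all genes. NFKBIA, the inhibitor IκBα, read 10.52, 10.62 and 10.53 in SIRT6 cells and 10.67, 10.61 and 10.70 in empty vector cells (change −0.10, interval −0.25 to 0.05). TNFAIP3, the feedback inhibitor A20, changed by 0.31 and 0.18 on its 2 probe sets, with all SIRT6 arrays above the others and adjusted p values of 0.544 and 0.771. NFKB1 changed by 0.02 and RELA, by its brighter probe set, by 0.11. Of 34 interferon response genes none passed both thresholds, with ISG20, an RNA exonuclease, higher by 0.55 (SE 0.0927, adjusted p = 0.0149). Of 25 immediate early genes none did, with 20 of 25 above 0, and FOSB, an AP-1 subunit, changed by 0.46 (adjusted p = 0.108).

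TLR7 stood out among the TNFα targets. It encodes the endosomal receptor for single-stranded RNA. Its probe set 220146_at read 6.00, 6.15 and 6.11 in SIRT6 cells, against 5.27, 5.02 and 5.38 in empty vector cells. The rise was 1.82-fold (log2 0.86, SE 0.165, adjusted p = 0.0389). It was lost when any of the 6 arrays was left out, with adjusted p values of up to 0.273, and the second probe set gave 0.37 (adjusted p = 0.504), also with no overlap. Without TNFα the transcript was near the low end of the scale in both kinds of cell, at 2.85 ± 0.185 with SIRT6 and 2.58 ± 0.23 with empty vector (SD, n = 3 each), and TNFα raised it by 2.40 in untransfected cells. CD14, the coreceptor for bacterial lipopolysaccharide, read 4.31, 4.49 and 4.70 against 3.82, 3.88 and 3.91 (rise 0.63, SE 0.125, adjusted p = 0.0499) and was likewise lost without any 1 array. TLR7 and CD14 were the 2 that passed of 18 Toll-like receptors and partners, whose median was 0.021. TLR3 changed by −0.37 (adjusted p = 0.709), in the other direction.

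The resting cells gave the same contrast on 6 other arrays. Of the 30 probe sets upregulated with TNFα 29 were also higher at rest (50.3% of named probe sets were), the exception being MYRFL with −0.02. Of the 30, 9 passed both thresholds at rest (0.0443% of all named probe sets did) and 13 had an adjusted p under 0.05 (0.0886%). In 27 of 30 all SIRT6 arrays lay above all empty vector arrays, beside 6.81% of named probe sets, and their median change was 0.53, beside 0.00085. Both downregulated genes were lower at rest too, with changes of −0.23 in SOX30 and −0.13 in TMEM144, and neither passed. In the other direction, 19 probe sets were upregulated at rest, and all 19 were higher with TNFα, 9 of them past both thresholds. Without the 3 arrays of low weight, empty vector replicate 2 among them, 15 of the 30 passed at rest.

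**Figure D4:**
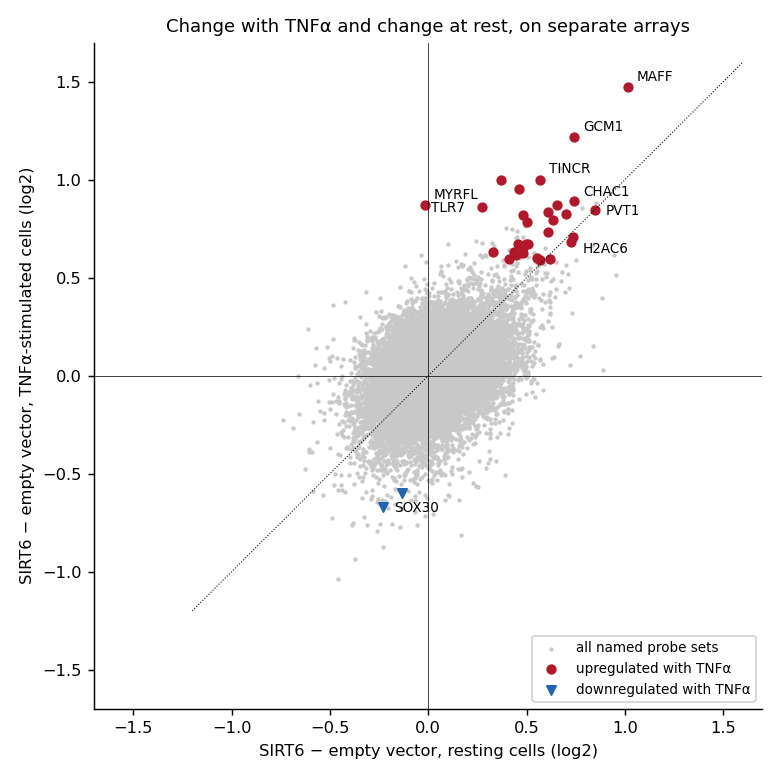
Change of SIRT6 over empty vector with TNFα (vertical axis, log2) against the change at rest (horizontal axis, log2) for all named probe sets (grey), the 30 upregulated with TNFα (red) and the 2 downregulated (blue triangles). The dotted line marks equal changes, and 29 of the 30 red points lie right of 0.

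The largest resting changes among these belonged to MAFF (36711_at), which read 6.47, 6.53 and 6.57 in SIRT6 cells and 5.43, 5.53 and 5.56 in empty vector cells at rest, a rise of 1.02 (adjusted p = 0.00553), and to PVT1, with 0.85 in both states (adjusted p = 0.00187 at rest). The second MAFF probe set, 205193_at, changed by only 0.37 at rest (adjusted p = 0.749), with overlapping arrays. CHAC1 rose by 0.74 at rest (adjusted p = 0.0278), H2AC6 by 0.73 and DUSP8 by 0.70 and 0.62 (adjusted p = 0.0011, 0.0011 and 0.00217). PHF21B, PSPC1 and the probe set 223774_at rose by 0.65, 0.63 and 0.74. With TNFα each of them had a probe set that passed when any single array was left out. TLR7 changed by 0.27 at rest, also with overlapping arrays, and did not pass, and CD14 changed by 0.33 (adjusted p = 0.736). In the ATF4 and CHOP list 36 of 42 genes were above 0 at rest (46.6% of all genes were), with a median of 0.11, and 36 of 42 had the same sign in both states.

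Whether the SIRT6 difference itself depends on TNFα was tested as the change with TNFα minus that at rest. No named probe set passed by limma, with 776 (1.81%) at an unadjusted p under 0.05, and none by the plain linear model, with 872. Over the 30 upregulated probe sets this difference ranged from −0.04 to 0.89 with a median of 0.18. It was 0.46 for MAFF (36711_at, interval 0.02 to 0.90, adjusted p = 0.999953), a wide interval. The second MAFF probe set, 205193_at, gave 0.63 (interval 0.20 to 1.06, adjusted p = 0.999953). The 30, MAFF among them, were selected on the change with TNFα, which is part of this difference. Values above 0 in them are therefore no sign that the SIRT6 difference depends on TNFα. The changes with TNFα and at rest had a Pearson r of 0.401 across the 42898 named probe sets and 0.383 across the 30, as a description over features that share arrays.

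**Figure D5:**
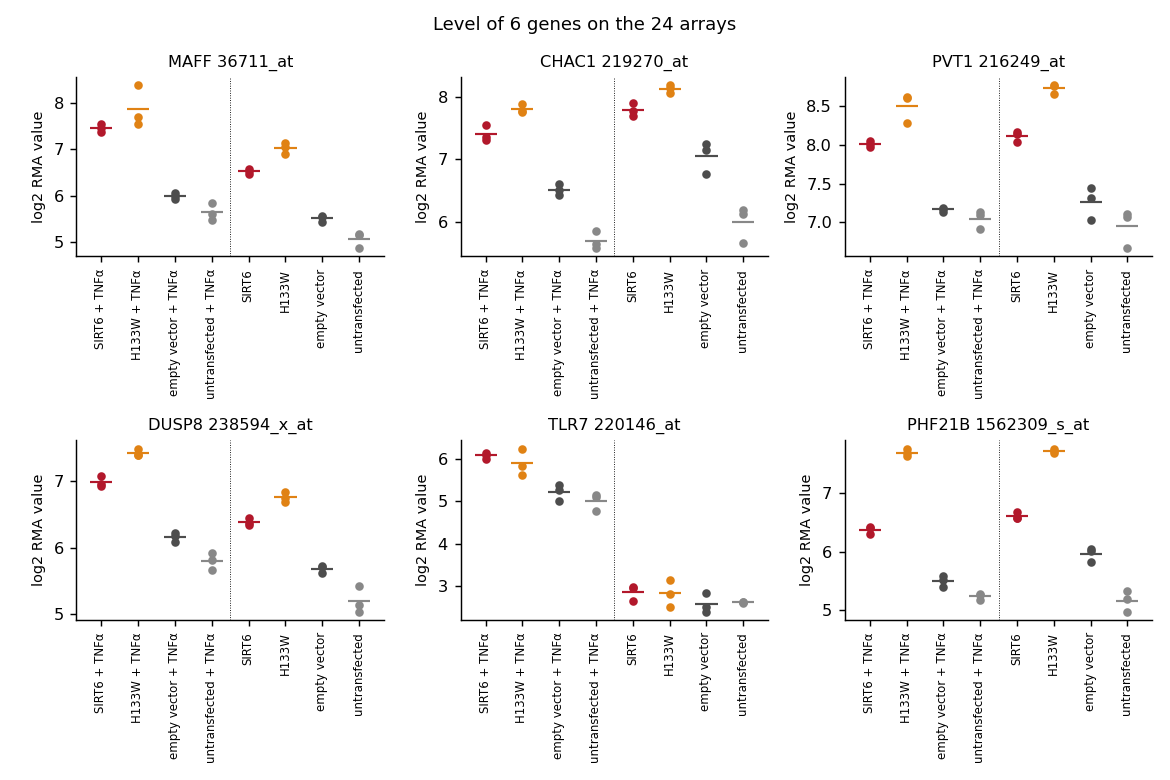
Log2 RMA value (vertical axis) of 6 upregulated genes on the 24 arrays, with TNFα left of the dotted line and without it to the right. Points are arrays and bars are means of 3. SIRT6 arrays lay above empty vector arrays with and without TNFα in each panel except TLR7 at rest, where they overlapped.

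Across the conditions the upregulated genes differed in how they followed TNFα. DUSP8 (238594_x_at) averaged 6.98 ± 0.084 in SIRT6 cells and 6.16 ± 0.0749 in empty vector cells with TNFα, and 6.38 ± 0.0553 and 5.68 ± 0.0582 in the same cells at rest (SD, n = 3 each). TNFα raised it by 0.59 in untransfected cells (adjusted p = 0.00034). CHAC1 averaged 7.41 ± 0.124 in SIRT6 cells and 6.51 ± 0.0809 in empty vector cells with TNFα, against 7.80 ± 0.11 and 7.05 ± 0.256 in the same cells at rest, so that both kinds of cell were lower with TNFα. In empty vector cells, which share their TNFα arrays with the comparison, the TNFα change of CHAC1 was −0.54, that of PHF21B −0.46 and that of DDIT3 −0.47 (adjusted p = 0.029, 0.0025 and 0.043). In untransfected cells, on other arrays, these were −0.30, 0.07 and −0.17, and none passed. Untransfected cells averaged less of each than empty vector cells in both states, with CHAC1 at 5.69 ± 0.141 in untransfected cells given TNFα. Other genes differed. With TNFα, untransfected cells averaged 4.16 in WNT6 (71933_at), 6.25 in PDE10A (211170_s_at) and 2.70 in TMEM144 (217613_at). SIRT6 cells averaged 4.40, 6.36 and 2.73, and empty vector cells 3.72, 5.69 and 3.33. In these genes untransfected cells lay nearer SIRT6 cells than empty vector cells.

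The H133W mutant, expressed from the same vector and without deacetylase activity, was set beside wild type SIRT6 against the same 3 empty vector + TNFα arrays. Of the 30 probe sets 25 were also upregulated by H133W (1.2% of all named probe sets were), with changes from 0.08 in CD14 to 3.41 in CRYAB and a median of 1.04, beside 0.76 for SIRT6. Because both contrasts use the same empty vector arrays, the shared direction is no independent support. The direct contrast of SIRT6 + TNFα with H133W + TNFα put 6 of the 30 lower in SIRT6 cells (0.301% of all named probe sets) and none higher (0.0629%). They were CRYAB (−2.75, interval −2.92 to −2.58), PHF21B (−1.32), H2AC6 (−1.01), ODAD4 (−0.74), RPL32P3 (−0.62) and PSPC1 (−0.61). H133W + TNFα replicate 3 had the lowest weight of the 24 arrays, 0.0844, and without it and the 2 others of low weight 8 of the 30 passed as lower.

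In all 12 of the 30 were lower in SIRT6 than in H133W cells at an adjusted p under 0.05, and for the others no lower value passed. MAFF was higher in SIRT6 than in empty vector cells by 1.47 and in H133W cells by 1.89, with a difference between SIRT6 and H133W of −0.41 (interval −0.72 to −0.10, adjusted p = 0.185). CHAC1 was higher by 0.89 and 1.29, with a difference of −0.40 (adjusted p = 0.134). TLR7 was higher by 0.86 and 0.68 (difference 0.18, adjusted p = 0.63). CD14 alone of the 30 was higher in SIRT6 than in H133W cells at an adjusted p under 0.05, by 0.55 (adjusted p = 0.0355), under the fold threshold, where 1.29% of named probe sets passed on the adjusted p in either direction.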

How the data were processed

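HEK293 cells were measured in 8 conditions on 24 Affymetrix arrays, 3 for each. The deposited values, for 54675 probe sets, are log2 intensities that the authors obtained with RMA in ArrayStudio, and they were used unchanged. RMA compresses changes of dim probe sets and assumes that most transcripts do not change. No genome build enters these values. All 24 columns were matched to samples by label, with 0 columns left over. Probe sets were named from the platform's gene table, which gives 1 gene for 41097, several for 1801 and none for 11777, and no gene was named from a probe set with several. Where a gene has several, lists used the one with the highest mean.

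The 24 arrays were fitted with 1 mean per condition in limma 3.58.1 under R 4.3.3 (16 residual and 3.47 prior degrees of freedom), and p-values of each contrast were adjusted by Benjamini-Hochberg over 54675 probe sets. The methods' general linear model and thresholds guided this choice. Intervals are 95% and unadjusted. The test was tried on simulated data. The number of arrays, 3 in a group, limits the precision. The comparison, the gene lists and the alternatives were chosen with earlier results of these data known. Every gene that passed was named, with values on each array for SIRT6, the 10 largest rises, both falls and list members that passed, and for up to 4 further list members. TRIB3, ATF4, ASNS, KDM6B, HMOX1 and the members given for contrast were chosen after their values were seen. Promoters are RefSeq's on GRCh38.p14. Alternatives were a plain linear model, the 6 arrays alone, a variance trend, a filter at a mean of 5, median centring, quantile normalisation, array weights, a fit without 3 arrays, a block for the replicate number, each array left out, and other thresholds. No protein data were analysed here.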

Additional observations from a re-analysis of the deposited data

How the results depend on the processing

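The count of 30 higher probe sets was 60 with array weights, 52 without the 3 arrays of lowest weight and 63 with no fold threshold, and 14 to 22 with 1 of the 6 arrays left out. It stayed between 24 and 33 under the other alternatives. The count of 2 lower ones was 29 with array weights, 9 without the 3 arrays, 5 with unnamed probe sets counted, 3 with no fold threshold, and 1 under the plain linear model, the 6 arrays alone, the filter on dim probe sets, median centring, quantile normalisation and the replicate block. It was 0 to 1 with 1 array left out. Why leaving out an array cost calls was not tested. All 32 probe sets kept their direction under each alternative that tested them. With an array left out this was fixed in advance, because the arrays of the 2 groups did not overlap. The plain linear model, the 6 arrays alone and the variance trend leave the changes as they are. Of the 32, 13 passed without each of the 6 arrays in turn, and 10 failed whichever array was left out. The 2 calls among TNFα-responsive transcripts were 1 under the plain linear model, median centring, the replicate block and the filter on dim probe sets, and 1 to 2 with an array left out. They were 3, all higher, without the 3 arrays and 6, of which 5 were higher and 1 lower, with array weights. Each fit drew its own TNFα list, of 390 probe sets in the main fit, 485 without the 3 arrays and 523 with array weights. No interaction passed under any alternative that was run, and the 6 arrays alone cannot give it. Of the 32 called probe sets 31 had the same sign at rest, and 31 or 32 did under 5 alternatives chosen after seeing the data. Replicate numbers gave no sign of pairing the samples. Deviations of same-numbered arrays correlated at 0.0627, 0.095 and −0.115, and those of differently numbered arrays at −0.19 to 0.147. With 3 arrays in a group these values cannot exclude pairing. With the replicate block 27 higher and 1 lower passed, 28 of the 32 among them. With the widest-spread probe set per gene, 28 of 31 list medians moved by less than the spread between arrays.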

Other observations

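Probe sets with no gene name in the table gave 6 further calls, 3 higher in SIRT6 + TNFα cells than in empty vector + TNFα cells and 3 lower. The higher ones changed by 0.81, 0.74 and 0.74 and the lower ones by −0.66, −0.87 and −1.17. The largest fall read 3.26, 3.44 and 2.85 in SIRT6 cells against 4.39, 4.97 and 3.71 in empty vector cells, at the dim end of the scale. Unnamed probe sets thus held 3 of the 5 falls found over all 54675, and what they read was not analysed here.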
